A study of Canis lupus familiaris with 8 samples.

Results

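The cytotoxic granule, killer receptor and FAS genes are 9 of the 160 genes on a canine NanoString panel, in which barcoded probes are counted on single RNA molecules without amplification. They were taken by probe name, as the rows GZMA, GZMB, PRF1, CTSW, KLRB1, KLRD1, KLRK1, NCR1 and FAS, and all 9 were present in all 8 dogs. No measured value is part of this rule.

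Killer lymphocytes, which are cytotoxic T cells and natural killer (NK) cells, store perforin and granzymes in granules. On contact with a target cell the granules are released, perforin opens the target membrane and granzymes enter and start its death. A separate route runs through FAS, a receptor on the target that starts death when bound by FAS ligand. Receptors of the killer lectin family and NCR1 set when a killer cell acts, and in vitiligo cytotoxic T cells are known to destroy the pigment cells of the skin.

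The series measured archival, formalin-fixed skin of 8 separate dogs. Of these, 2 had a Vogt-Koyanagi-Harada (VKH)-like syndrome, in which pigment cells of skin and eye are attacked, 1 had vitiligo, in which pigment cells of the skin are lost, and 5 were healthy. In the labels, VKH replicate 1 was a male Bernese Mountain Dog aged 2.5 years, VKH replicate 2 a male Husky aged 2 years and the vitiligo dog a neutered male Labrador cross aged 1 year. Other ages stand in the study's text for the Husky and the vitiligo dog. The healthy samples were leg margins of dogs aged 6 to 12 years, spayed females as replicates 1, 3 and 5 and neutered males as replicates 2 and 4, of 5 different breeds or crosses. By the study's account the cases were biopsied for diagnosis, with pigment changes on the nose in each, and the Bernese Mountain Dog received steroids, at a time relative to the biopsy that is not stated. Age, body site and way of sampling differed along with disease and cannot be told apart from it. The label of a single vitiligo dog stands for 1 animal, so its values carry no spread of their own.

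Summed over the panel, healthy samples held 209889 to 675018 counts, VKH samples 742667 and 616576 and the vitiligo sample 421915. Counts were divided by a factor from the 4 housekeeping genes of each dog, which ranged from 0.706 to 1.86 and was highest in healthy replicate 3. By the study's account B2M, which is among these genes, itself differed between VKH and healthy skin. An alternative factor left B2M out. Background, the mean plus 2 SD of the 8 negative control probes, lay at 16.6 to 27.8 counts. T cell markers were higher in VKH and in vitiligo in 4 of the 4 measured (summed scaled level 1048, 1283 and 1013 in the cases against 122 to 208 in the healthy dogs). B cell markers were higher in 4 of 4 in VKH and 2 of 4 in vitiligo (233, 413 and 493 against 92.4 to 132). Of the 7 keratinocyte markers 3 were higher in VKH and 0 in vitiligo. Of the 3 neutrophil markers 2 were higher and 1 lower in VKH (6194, 4991 and 3297 against 167 to 1630), and the endothelial marker PECAM1 was lower there (1628, 1457 and 2339 against 2770 to 7084). In VKH 1 of 3 mast cell markers and 1 of 4 dendritic or Langerhans cell markers were also lower. There 1 of 2 fibroblast markers and 1 of 2 macrophage markers, CD84, were higher. The summed level of the macrophage markers lay within the healthy range (959, 841 and 1005 against 602 to 2515). That of the fibroblast markers was not above it (20522, 37916 and 44101 against 30293 to 124764). Of the 4 melanocyte markers none passed in either direction. No defining marker of any list was at 0 counts in every dog. Their part in the results was not tested. In such bulk samples, more cells of a type and more RNA per cell cannot be told apart.

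Apart from FAS and KLRD1, the genes were mostly under background in healthy skin, and nearly all values in the cases were above it. In the 3 cases 26 of 27 values exceeded background, the exception being NCR1 in the vitiligo dog. In the healthy dogs 15 of 45 did, and 7 of these came from healthy replicate 3. FAS was above background in 5 of 5 healthy dogs and KLRD1 in 4 of 5, while each of the other 7 genes was so in at most 1. A fold change over healthy skin therefore starts from values at background for most of these genes.

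GZMA and GZMB encode granzymes A and B, proteases that are delivered into the target cell. GZMA stood at 161 and 118 scaled counts in VKH replicates 1 and 2, at 101 in the vitiligo dog and at 19.8, 13.4, 16.7, 12.5 and 7.78 in healthy replicates 1 to 5. All 3 cases lay far above the healthy dogs, and the lowest case was 5.11 times the highest healthy dog. GZMA was higher in VKH by a log2 fold change of 3.31 (standard error 0.37, edgeR adjusted p = 9.8e-05) and in vitiligo by 2.84 (standard error 0.45, adjusted p = 0.000981). GZMB stood at 103 and 112 scaled counts in VKH, at 105 in vitiligo and at 15.6, 28.0, 24.8, 20.5 and 11.7 in the healthy dogs. The 3 cases were nearly level with each other and did not overlap with the healthy dogs. Its log2 fold change was 2.40 in VKH (standard error 0.37, edgeR adjusted p = 0.000812) and 2.37 in vitiligo (standard error 0.45, adjusted p = 0.0033).

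PRF1 encodes perforin, the pore-forming protein of the granules. It stood at 39.2 and 43.9 scaled counts in VKH, at 71.3 in vitiligo and at 9.91, 20.7, 6.46, 11.4 and 13.6 in the healthy dogs. The vitiligo dog was the highest of all 8, and no healthy dog was above background. The log2 fold change was 1.76 in VKH (standard error 0.43, edgeR adjusted p = 0.00904) and 2.54 in vitiligo (standard error 0.51, adjusted p = 0.00471). CTSW encodes cathepsin W, a cysteine protease found mainly in cytotoxic T and NK cells. It stood at 302 and 212 scaled counts in VKH, at 269 in vitiligo and at 29.7, 51.2, 11.8, 17.1 and 16.5 in the healthy dogs. The healthy dogs spread widely, with replicate 2 the highest, yet none came near a case. Its log2 fold change was 3.37 in VKH (standard error 0.49, edgeR adjusted p = 0.000658) and 3.43 in vitiligo (standard error 0.58, adjusted p = 0.00154). The size of these 4 folds moved with the treatment of background. For PRF1 in VKH it was 4.47 on the log2 scale after the mean of the negative controls had been subtracted and 1.00 after every count under 20 had been set to 20, and for GZMA it was 5.18 and 2.66.

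**Figure D1:**
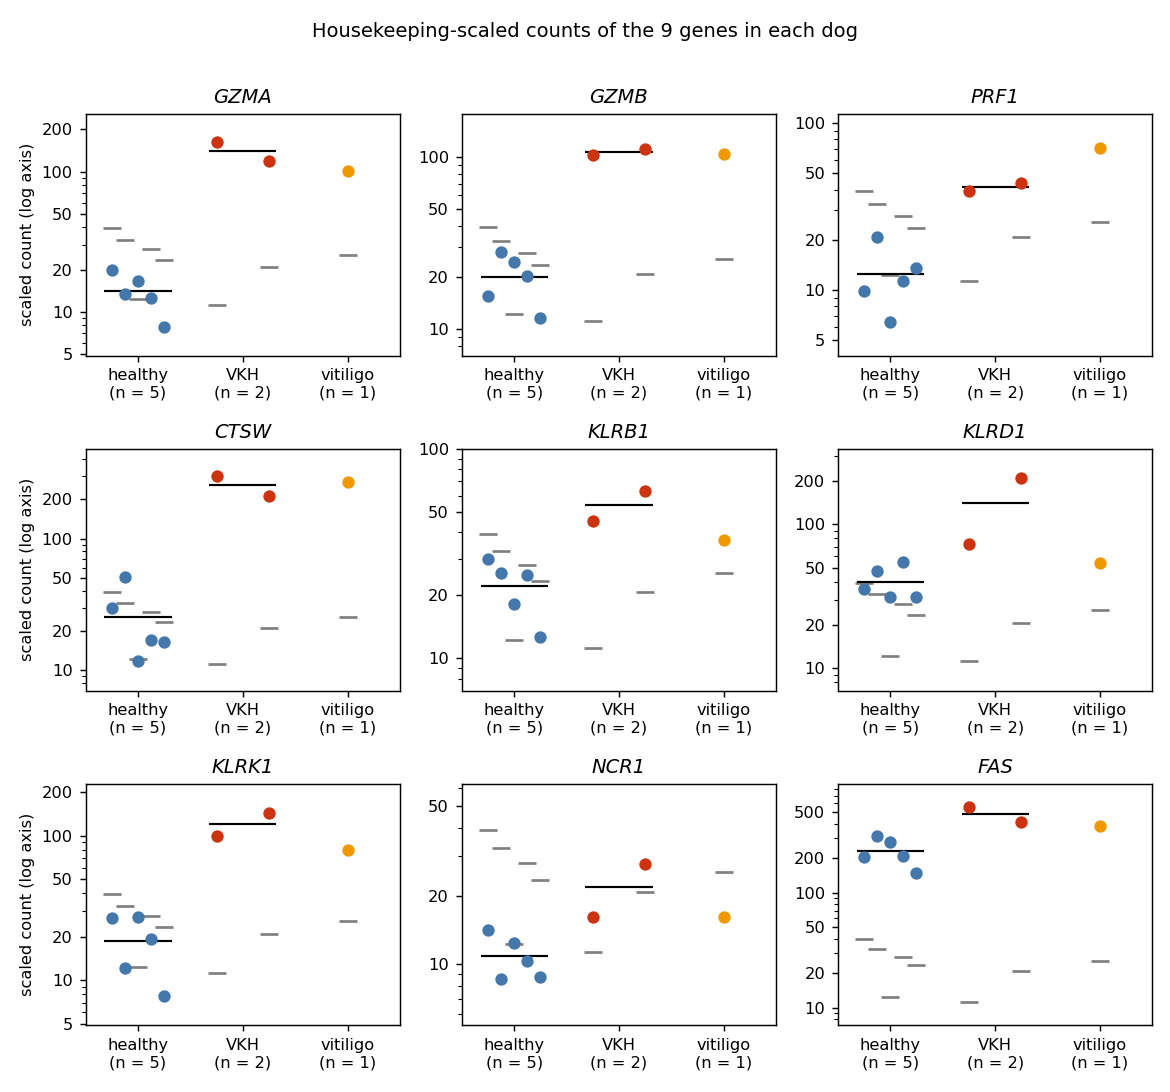
Scaled counts of the 9 genes (log axis) in 5 healthy, 2 VKH and 1 vitiligo dogs, 1 point per dog, with black lines at the group means and short grey lines at each dog's background on the same scale. The granule genes and KLRK1 separate the 3 cases from the healthy dogs by a wide gap, whereas the NCR1 points of all dogs lie near or below the grey lines and the vitiligo point of KLRD1 falls inside the healthy range.

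KLRK1 encodes NKG2D, an activating receptor for stress-induced ligands on NK cells and CD8 T cells. It stood at 98.6 and 143 scaled counts in VKH, at 79.3 in vitiligo and at 26.9, 12.2, 27.4, 19.3 and 7.78 in the healthy dogs. The lowest case was 2.89 times the highest healthy dog. It was higher in VKH by a log2 fold change of 2.67 (standard error 0.45, edgeR adjusted p = 0.00124) and in vitiligo by 2.07 (standard error 0.57, adjusted p = 0.0244). KLRD1 encodes CD94, the partner chain of NKG2 receptors other than NKG2D. In the reference annotation of the dog it is the direct protein-coding neighbour of KLRK1, with 0 such genes between them. KLRD1 stood at 73.6 and 210 scaled counts in VKH, at 54.0 in vitiligo and at 35.4, 47.5, 31.2, 54.6 and 31.1 in the healthy dogs. VKH replicate 2 stood far above every other dog, and the vitiligo dog lay just below the highest healthy dog. The log2 fold change was 1.82 in VKH (standard error 0.43, edgeR adjusted p = 0.00761), and in vitiligo it was 0.44 (standard error 0.59) and did not pass (adjusted p = 0.633).

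KLRB1 encodes CD161, a lectin-like receptor found on NK cells and on subsets of T cells. It stood at 45.2 and 62.8 scaled counts in VKH, at 36.8 in vitiligo and at 29.7, 25.6, 18.3, 25.04 and 12.6 in the healthy dogs. The cases were above the healthy dogs by a narrow margin, the lowest case being 1.24 times the highest healthy dog. Its log2 fold change was 1.29 in VKH (standard error 0.39, edgeR adjusted p = 0.0233), and in vitiligo it was 0.74 (standard error 0.52) and did not pass (adjusted p = 0.356). NCR1 encodes NKp46, an activating receptor that marks NK cells most closely of the 9. It stood at 16.2 and 27.6 scaled counts in VKH, at 16.1 in vitiligo and at 14.2, 8.53, 12.4, 10.2 and 8.75 in the healthy dogs. The raw counts behind these were 24, 22 and 14 in the cases and 7 to 23 in the healthy dogs, near or below background throughout. They exceeded background in 2 of 3 cases and 1 of 5 healthy dogs. In healthy replicates 1, 2, 4 and 5 they were under even the mean of the negative controls. The log2 fold changes of 0.98 in VKH (edgeR adjusted p = 0.0721) and 0.57 in vitiligo (adjusted p = 0.508) did not pass. In VKH it passed with the housekeeping factor taken without B2M (1.59, edgeR adjusted p = 0.0089) and with background subtracted (2.49, adjusted p = 0.034).

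FAS, the death receptor, was well above background in all 8 dogs, unlike the other genes. It stood at 558 and 412 scaled counts in VKH, at 384 in vitiligo and at 207, 312, 275, 209 and 148 in the healthy dogs. All 3 cases were above all healthy dogs, with the lowest case 1.23 times the highest healthy dog. The log2 fold change was 1.07 in VKH (standard error 0.34, edgeR adjusted p = 0.0286), and in vitiligo it was 0.74 (standard error 0.45) and did not pass (adjusted p = 0.269). FASLG is the ligand of FAS that killer cells carry. It gave 36, 24 and 37 raw counts in the cases and 7 to 33 in the healthy dogs. Scaled, it stood at 24.3 and 30.1 in VKH, at 42.5 in vitiligo and at 8.53 to 22.6 in the healthy dogs. The lowest case was 1.07 times the highest healthy dog, and only 1 healthy dog was above background. Its log2 fold change of 0.74 in VKH did not pass (edgeR adjusted p = 0.174). Nor did those of 1.39 in vitiligo and 0.98 in the 3 cases (edgeR adjusted p = 0.0526 in the cases).

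Counted over the group, 8 of the 9 genes were higher in VKH, against a background of 31.4% of the 156 genes tested, and 0 were lower. In vitiligo 5 of 9 were higher, against 21.8%, and these were the 4 granule genes and KLRK1. With 1 vitiligo dog, its standard errors and p-values rest on the spread among the other dogs, so the calls describe this dog and not vitiligo in general. The median log2 fold change of the 9 genes was 1.82 in VKH and 2.07 in vitiligo, and that of all 156 genes was -0.01 and 0.29. Against the 2 male healthy dogs alone, 4 of 9 were higher in VKH, against 21.8% of all genes, since PRF1 (adjusted p = 0.0943), KLRB1 (0.118), KLRD1 (0.110) and FAS (0.129) no longer passed, and PRF1 no longer passed in vitiligo (0.0641). Scaled by the library total 4 of 9 were higher in VKH, against 14.7% of all genes, and scaled by the positive controls 1 of 9, CTSW, in vitiligo, against 4.49%. KLRK1 in vitiligo missed the threshold in 6 of 22 alternative settings, with adjusted p of 0.0685 under TMM, 0.0783 with background subtracted, 0.102 under library-total scaling, 0.145 with the replicate block, 0.185 without scaling and 0.576 under positive-control scaling. Statistical significance in VKH also rested on single dogs for 3 genes. FAS was lost without VKH replicate 1 (adjusted p = 0.186), VKH replicate 2 (0.0667) or healthy replicate 4 (0.0569), KLRB1 without VKH replicate 2 (0.130) or healthy replicate 3 (0.0528), and KLRD1 without VKH replicate 2 (0.15, log2 fold change 0.88). Over all alternative settings the adjusted p ran from 0.00398 to 0.415 for FAS, from 0.00269 to 0.387 for KLRB1, from 0.00106 to 0.15 for KLRD1 and from 0.00101 to 0.227 for PRF1.

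**Figure D2:**
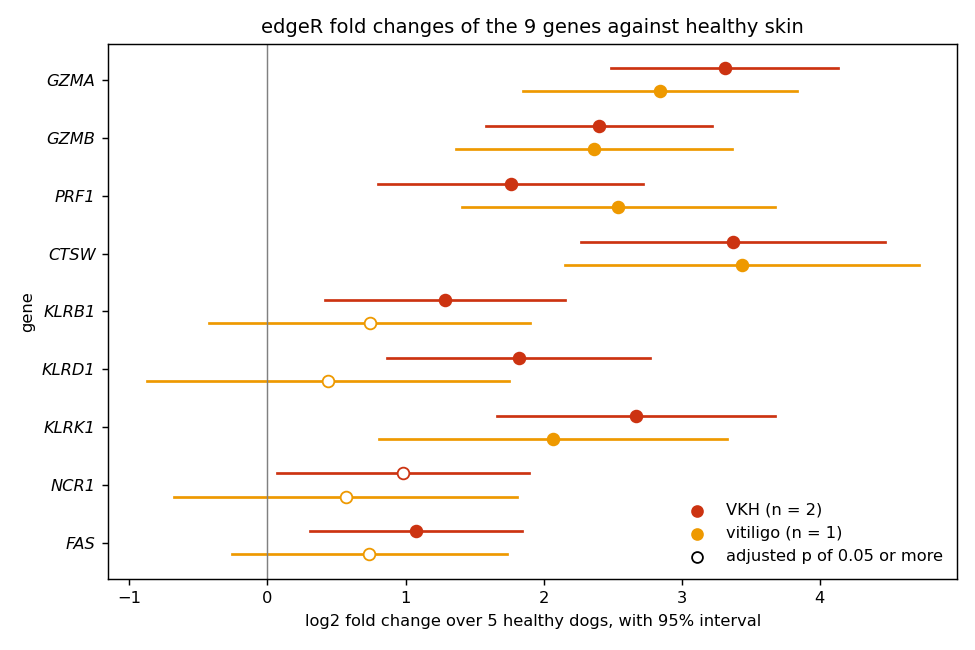
Log2 fold change of each gene over the 5 healthy dogs (x axis) from edgeR, with 95% intervals, for VKH (2 dogs) and vitiligo (1 dog). Filled points passed the adjusted threshold of 0.05, CTSW and GZMA lie above 2.8 in both diseases, and NCR1 has open points in both.

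With the 3 cases as 1 group, 8 of 9 genes were higher, against 36.5% of the genes tested. The log2 fold changes were 3.39 for CTSW, 3.17 for GZMA, 2.50 for KLRK1, 2.39 for GZMB, 2.06 for PRF1, 1.49 for KLRD1, 1.13 for KLRB1 and 0.97 for FAS, and NCR1 at 0.86 did not pass (edgeR adjusted p = 0.0647), though it did with the housekeeping factor taken without B2M (0.00555) or after the low-count filter (0.0435). In 8 of 9 genes every case exceeded every healthy dog, against 34.6% of the genes tested, and KLRD1 was the exception. Each of the 8 had p = 0.0357 in an exact two-sided permutation test over dogs, the smallest that 3 against 5 allows, and KLRD1 had p = 0.0714. With 2 VKH dogs against 5 the smallest is 0.0952. Among the neighbours in the order of fold changes, the intervals of CTSW and GZMA and those of KLRK1, GZMB and PRF1 overlapped widely. The calls of FAS, KLRB1 and KLRD1 again rested on single dogs, FAS being lost without VKH replicate 1 (adjusted p = 0.0929), KLRB1 without VKH replicate 2 (0.0844) or healthy replicate 3 (0.0524) and KLRD1 without VKH replicate 2 (0.137). Against male healthy dogs only, or with library-total scaling, these 3 genes did not pass. GZMA, GZMB, CTSW and KLRK1 passed in this comparison in 22 of 22 alternative settings, with adjusted p up to 0.0314.

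The scaled values of the 2 VKH dogs differed from gene to gene, and no such difference was tested. VKH replicate 1 had more GZMA, CTSW and FAS than VKH replicate 2, at 1.37, 1.42 and 1.35 times its scaled counts. For the killer receptors the order of the scaled values was turned, at 0.721 times for KLRB1, 0.351 for KLRD1, 0.689 for KLRK1 and 0.587 for NCR1. GZMB and PRF1 were nearly level between these dogs, at 0.919 and 0.891 times. The housekeeping factors of these dogs were 1.48 and 0.797, and the order of KLRB1, KLRK1 and NCR1 depended on the scaling. It was kept under TMM, at 0.834, 0.797 and 0.679 times. Median-of-ratios scaling (0.963, 0.920 and 0.784) and positive-control scaling (0.860, 0.822 and 0.700) also kept it. In raw counts VKH replicate 1 was the higher for KLRB1 (67 against 50), KLRK1 (146 against 114) and NCR1 (24 against 22), and per library total for KLRB1 and KLRK1, at 1.11 and 1.06 times. KLRD1 alone of the 4 was lower in VKH replicate 1 under all 7 scalings, at 0.335 to 0.653 times, and GZMA, CTSW and FAS were higher under each. The vitiligo dog had 1.72 times the mean VKH level of PRF1 and 0.382 times that of KLRD1.

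The direct test of VKH against vitiligo passed for 0 of the 9 genes in edgeR, against 0.641% of all genes, and 0 of 9 were under 0.05 unadjusted. DESeq2 and limma also called 0. For KLRD1 the log2 difference was 1.38 higher in VKH (95% interval -0.19 to 2.95, adjusted p = 0.723), and for PRF1 it was -0.78 (95% interval -2.14 to 0.58, adjusted p = 0.949). With 2 dogs against 1, these intervals leave room for differences of several-fold in KLRD1. Passing in VKH and not in vitiligo, as for KLRB1, KLRD1 and FAS, was therefore not shown to differ between the diseases.

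**Figure D3:**
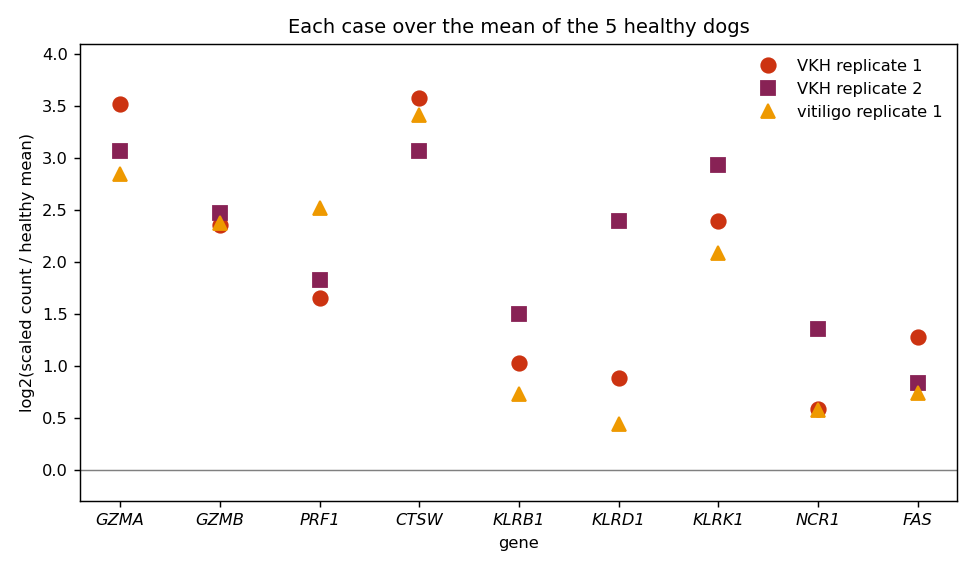
Log2 ratio of each case to the mean of the 5 healthy dogs (y axis) for the 9 genes, with 1 symbol per dog. On this scale VKH replicate 2 has the highest point in each of the 4 killer receptor genes, VKH replicate 1 in GZMA, CTSW and FAS, and the vitiligo dog in PRF1.

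The T cell transcript CD3E, a chain of the T cell receptor complex, rose beside these genes. It stood at 1113, 725 and 572 raw counts in the cases and 47, 115, 159, 91 and 73 in the healthy dogs, with a log2 fold change of 3.15 in VKH (standard error 0.34, edgeR adjusted p = 8.43e-05). To set the 9 genes against T cell content, each was expressed as a percent of the CD3E count of the same dog. This is a ratio of 2 transcripts in whole skin, and NK cells, which carry several of these genes, lack surface CD3.

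Relative to CD3E, GZMA and CTSW in the cases overlapped with the healthy dogs. GZMA was 21.5% and 13.0% of CD3E in VKH, 15.4% in vitiligo and 29.8%, 9.57%, 19.5%, 12.1% and 11.0% in the healthy dogs. CTSW was 40.2% and 23.3% in VKH, 40.9% in vitiligo and 44.7%, 36.5%, 13.8%, 16.5% and 23.3% in the healthy dogs. In both genes the cases lay within the healthy range, which rests on values above background in 1 of 5 healthy dogs for each. For the 3 cases the log2 difference was 0.06 in GZMA (95% interval -0.92 to 1.04, edgeR adjusted p = 0.904) and 0.40 in CTSW (95% interval -0.61 to 1.40, adjusted p = 0.430), intervals that leave room for a change of about 2-fold either way in GZMA. Over 20 alternatives the difference ran from -0.59 to 1.76 in GZMA and from -0.37 to 1.83 in CTSW. KLRK1 also overlapped, at 13.1%, 15.7% and 12.1% in the cases against 8.70% to 40.4%, with a difference of -0.68 (adjusted p = 0.231).

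KLRB1, KLRD1, NCR1 and FAS were lower relative to CD3E in the cases, as were 82.6% of the 155 genes tested. KLRB1 was 6.02%, 6.90% and 5.59% of CD3E in VKH replicates 1 and 2 and the vitiligo dog, against 17.8% to 44.7% in the healthy dogs, a log2 difference of -2.00 (standard error 0.45, edgeR adjusted p = 0.00111). KLRD1 was 9.79%, 23.0% and 8.22% against 33.9% to 53.2%, a difference of -1.68 (standard error 0.46, adjusted p = 0.00419). FAS was 74.2%, 45.2% and 58.4% against 202% to 321%, a difference of -2.09. In each of these the 3 cases lay below all 5 healthy dogs, as they did in 78.1% of the genes tested. NCR1, near or below background in every dog, was 2.16%, 3.03% and 2.45% against 6.09% to 21.3%, a difference of -2.28. KLRB1 and NCR1 were above background in 1 of 5 healthy dogs each, so the sizes of their differences are not exact. With background subtracted KLRB1 (-1.09, edgeR adjusted p = 0.197), KLRD1 (-1.40, adjusted p = 0.0733) and NCR1 (-1.37, adjusted p = 0.162) did not pass. GZMB at 13.7%, 12.3% and 15.9% was also below the healthy range of 16.4% to 28.9%, yet its difference of -0.65 did not pass (edgeR adjusted p = 0.126). PRF1 at 5.21%, 4.83% and 10.8% overlapped with 7.55% to 19.2% and did not pass either (-0.93, adjusted p = 0.0791). In the 2 VKH dogs alone PRF1 was lower (-1.39, edgeR adjusted p = 0.0218). However, PRF1 was above background in 0 of 5 healthy dogs. With background subtracted, its difference in the 3 cases was 1.598 and did not pass (edgeR adjusted p = 0.0545). Neither the size nor the direction of the PRF1 difference is therefore settled.

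**Figure D4:**
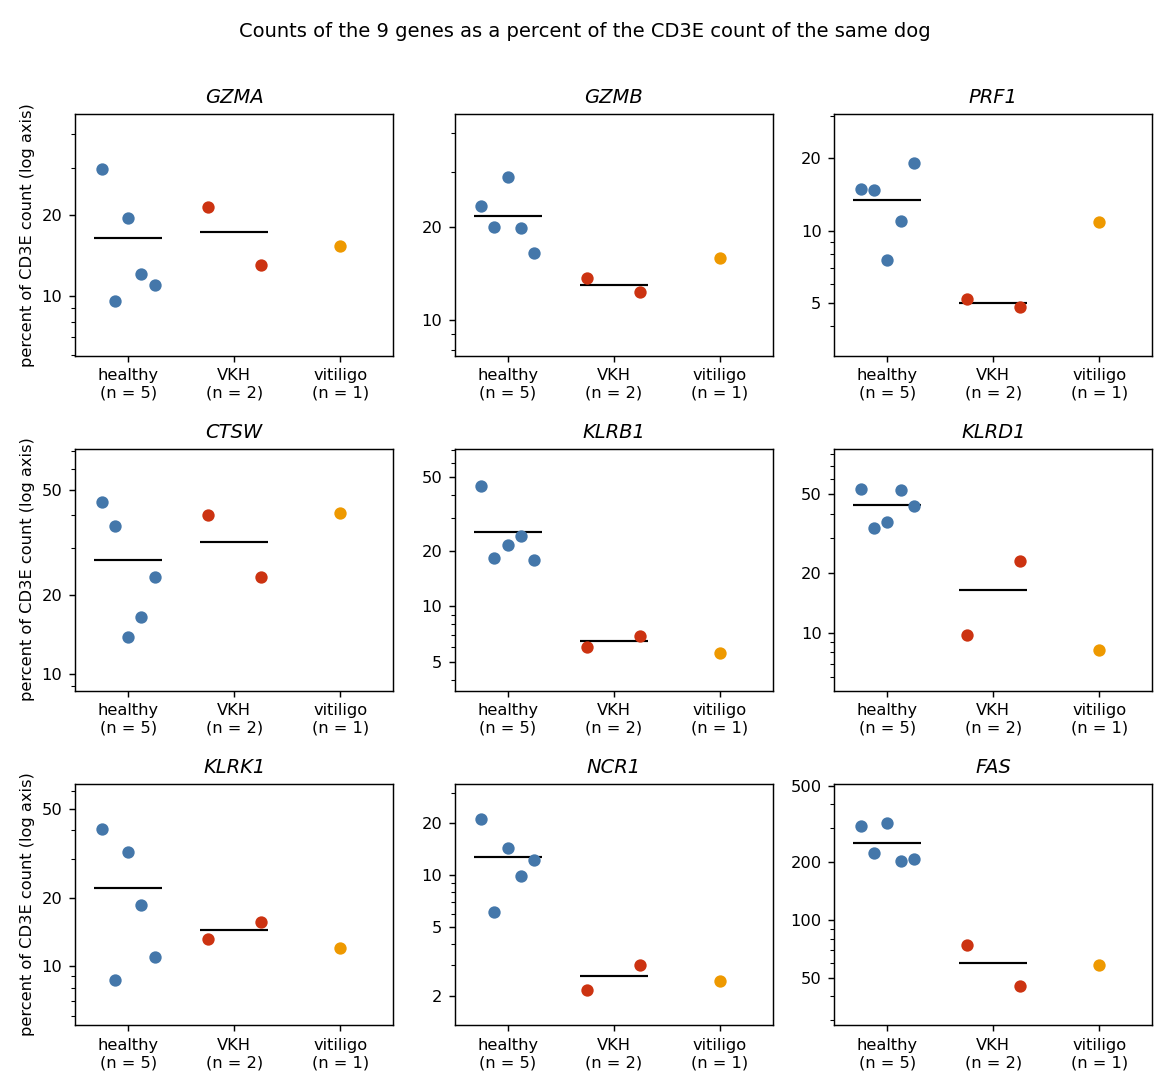
Raw count of each gene as a percent of the CD3E count of the same dog (log axis), 1 point per dog and black lines at the group means. The cases lie inside the healthy range for GZMA, CTSW and KLRK1, and below it for GZMB, KLRB1, KLRD1, NCR1 and FAS. All 3 cases lay below all 5 healthy dogs in 78.1% of the 155 genes tested.

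Over the 9 genes, 0 were higher and 4 lower than healthy skin relative to CD3E in the 3 cases, against 82.6% of the 155 genes tested that were lower. In VKH 5 of 9 were lower against 85.2%, namely PRF1, KLRB1, KLRD1, NCR1 and FAS, and in vitiligo 4 of 9 against 71.6%. The 3 cases were below all healthy dogs in 5 of 9 genes, against 78.1%. A lower ratio to CD3E was thus the rule over the panel. The median log2 difference in the cases was -0.93 for the 9 genes and -3.00 for all 155. Lower ratios also depended on the reference and on background. With SH2D1A as the T cell reference 0 of the 9 genes were lower in the cases, against 60.0% of all genes. GZMA and CTSW were higher (log2 difference 1.22 and 1.38), against 5.16% of all genes. SH2D1A was above background in only 2 of 5 healthy dogs, and CD3E in 5 of 5, so the healthy ratios to SH2D1A rest on a reference near background. With background subtracted, relative to CD3E, only FAS of the 9 was lower (-2.29), against 69.0% of all genes.

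CD8A, the chain that marks cytotoxic T cells, was also used as the reference, a choice made after seeing the data. Relative to CD8A 7 of the 9 genes were lower in the cases, against 89.7% of the 155 genes tested, and these included GZMB (-0.99, edgeR adjusted p = 0.0135), PRF1 (-1.31, adjusted p = 0.0203) and KLRK1 (-0.91, adjusted p = 0.0282), which did not pass relative to CD3E. Of the 5 healthy dogs, 0 were above background for PRF1 and 1 each for GZMB and KLRK1. Relative to CD3E with background subtracted, the differences were 0.47 for GZMB, 1.598 for PRF1 and 0.36 for KLRK1, and none passed. Background subtraction was not combined with CD8A as the reference. Neither the sizes nor the directions of the differences in these genes are therefore settled. CD8A itself was 66.5% and 78.9% of CD3E in VKH, 69.1% in vitiligo and 37.4% to 89.4% in the healthy dogs. GZMA was 32.3%, 16.4% and 22.3% of CD8A in the cases and 20% to 33.3% in the healthy dogs, so the ranges overlapped. KLRD1 was 14.7%, 29.2% and 11.9% of CD8A against 55.2% to 111.6%, with no overlap. KLRK1 was 19.7%, 19.9% and 17.5% against 20% to 48.6%, which did not overlap but nearly met.

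Other genes of the same pathway were taken from a list of 48, of which 14 were measured. In VKH 12 of the 14 were higher and 0 lower, against 31.4% of all genes that were higher, in vitiligo 6 were higher, against 21.8%, and in the 3 cases 12, against 36.5%. Relative to CD3E 10 of the 14 were lower in VKH, against 85.2% of all genes. In VKH the log2 fold change was 3.57 for CD8A (edgeR adjusted p = 2.24e-05) and also 3.57 for IL21R, the receptor of interleukin 21 (adjusted p = 5.49e-05). The transcription factors of killer cells TBX21 and EOMES had 2.66 and 1.87. The receptors CD84 and CD244 had 1.78 and 1.67, and the adaptor SH2D1A had 1.77. Of these, CD84 was also counted above as a macrophage marker and SH2D1A as a T cell marker. The cytokines and receptors TNF, IFNG, IL12 (IL12B), CD215 (the interleukin 15 receptor alpha chain) and IL15 had 1.71, 1.47, 1.30, 1.17 and 1.13. Those that did not pass were FASLG and IL21, the latter at 0.14 (edgeR adjusted p = 0.847).

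The genes with the most similar course over the 8 dogs were found by the root mean square difference of log2(scaled count + 1) after each gene was set to its healthy mean, against 151 other genes above background in at least 1 dog. This is a description across dogs that share group and housekeeping factor. Nearest to GZMA was CD8A, at 0.345 against a median of 1.95 over the genes compared, and nearest to GZMB was TBX21, at 0.368 against 1.54. CTSW was nearest to CD3E (0.597), KLRK1 to GZMA (0.500) and PRF1 to MS4A1, the B cell marker CD20 (0.408). KLRD1 and KLRB1 were both nearest to IFNG, at 0.303 and 0.279, FAS to ADAR, an RNA-editing enzyme (0.341), and NCR1 to IL15 (0.256). The nearest genes of GZMA and CTSW were thus genes of T cells, without any statement on shared control. For GZMB, TRAT1 (0.369) and MS4A1 (0.384) were almost as near as TBX21.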

How the data were processed

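The authors hybridised RNA from formalin-fixed skin to a 160-gene NanoString panel and deposited raw counts per probe, with 8 negative and 6 positive controls kept. The software was nSolver, and its version is not given in the sources used here. Probe names were matched to current symbols by accession (72) or symbol (76).

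Scaled counts are raw counts divided by a factor per dog, the geometric mean of its housekeeping genes (B2M, RPL13A, HPRT, CCZ1) over that of all dogs. The test was edgeR 4.0.16 in R 4.3.3 (quasi-likelihood, legacy fit), with the housekeeping mean, or the CD3E count, as library size. Adjustment was by Benjamini-Hochberg across all 156 (155) genes at 0.05, with no filter on low counts. VKH, vitiligo and healthy entered 1 fit of all 8 dogs, in which the vitiligo dog takes its spread from the others, and the 3 cases a second. Intervals are 95% and cover the fit only. The genes, lists and tests were chosen with earlier results of these data known. The 9 genes were all named, and of the pathway list those that passed in VKH, with FASLG and IL21. The alternatives were other scalings, a low-count filter (20 counts in 2 dogs), a floor of 20, background subtraction, DESeq2 1.42.0, limma 3.58.1 on log2(scaled count + 1), male healthy dogs, each dog left out, a replicate block, and other references in place of CD3E.

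Data were simulated with 40 of 156 genes changed. In these, 4-fold changes were recovered in 82.7% of genes for VKH, 55.8% for vitiligo and 91.9% for the cases. For 2-fold changes the shares were 19.3%, 12.9% and 28.9%. The simulated baseline of each gene was its mean over all dogs, cases included, and not its healthy level. The shares therefore do not apply to genes near background in healthy skin.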

Additional observations from a re-analysis of the deposited data

Results flagged for a closer look

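KLRB1 as a percent of CD3E was 44.7% in healthy replicate 1, far from the other 4 healthy dogs at 17.8% to 24.2%, by Dixon's test at its 95% critical value. The raw KLRB1 count of this dog was 21, under its background of 27.8, and its CD3E count of 47 was the lowest of the 8 dogs. In all, 18 groups of 5 values were tested in this way, of which chance flags about 1 in 20.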

How the results depend on the processing

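The choice of scaling, of the healthy dogs and of the reference changed how many of the 9 genes passed. Shares in parentheses are of all genes tested, called in the same direction under the same setting. In VKH 4 were higher with library-total scaling (14.7%) and 4 against male healthy dogs only (21.8%), and 5 by the methods' t-test on unscaled counts after Benjamini-Hochberg (15.4%), with 7 unadjusted (30.1%). Leaving out 1 dog at a time gave 5 to 8 (20.5% to 31.4%). In vitiligo 3 were higher without scaling (12.2%) and 1 with positive-control scaling (4.49%), and in the 3 cases 5 with library-total scaling (20.5%) and 5 against male healthy dogs only (24.4%). In VKH the median over all genes on the log2 scale moved from -0.01 to 0.57 without B2M, -0.87 under library-total, -0.26 under TMM, -0.25 under median-of-ratios and 0.65 under positive-control scaling, and that of the 9 genes from 1.82 to 2.42, 0.99, 1.54, 1.56 and 2.62. The low-count filter, the floor, the newer edgeR fit, DESeq2, limma and the fit of only the groups compared left the counts against healthy skin at 8 for VKH, 5 for vitiligo and 8 or 9 for the cases. VKH against vitiligo stayed at 0 in all of its 20 alternatives.

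Replicate numbers were taken as names only. The deviations of same-numbered VKH and healthy dogs correlated at -0.08 and -0.13, and those of the crossed pairs at 0.13 and 0.08. With 2 VKH dogs the deviations mirror each other, so these values cannot decide whether the numbers pair dogs. With the number as a replicate block, 4 genes were higher in VKH (17.9%), 1 in vitiligo (13.5%) and 4 in the cases (17.9%), and relative to CD3E 1 was lower in VKH (51.0%), 0 in vitiligo (29.0%) and 4 in the cases (75.5%).

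Relative to CD3E, background subtraction left 1 gene lower in VKH (67.1%), 2 in vitiligo (47.7%) and 1 in the cases (69.0%). Male healthy dogs only gave 3 lower in VKH (79.4%) and 2 in vitiligo (53.5%), the floor of 20 counts gave 7 in the cases (87.7%), and leaving out 1 dog gave 3 to 5 in VKH (73.5% to 86.5%) and 4 to 5 in the cases (80.0% to 85.2%). Of these T cell references, CD6 was above background in 5 of 5 healthy dogs, SH2D1A in 2 and TRAT1 in 0, and the T cell list holds all of them. With the T cell list as the reference 3 were lower in VKH (80.3%) and 1 was higher in the cases (4.61%). With CD6 3 were lower in VKH (76.1%), and with TRAT1 1 in VKH (71.6%) and 0 in vitiligo (31.0%). With SH2D1A 2 were higher and 0 lower in VKH (5.81% and 54.2%) and in the cases (5.16% and 60.0%), and 0 lower in vitiligo (26.5%). Among references chosen after seeing the data, PTPRC gave 2 higher and 0 lower in VKH (7.10% and 51.0%) and in the cases (7.74% and 54.2%) and 0 lower in vitiligo (6.45%), and CD8A gave 7 lower in the cases (89.7%).

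The values that changed sign did not pass in either setting. They were KLRD1 in vitiligo with TMM (-0.0729), NCR1 in vitiligo with background subtracted (-1.05) and PRF1 in VKH against vitiligo with positive controls (0.31). In the cases relative to CD3E, GZMA was -0.59 with the floor, -0.22 with the block and -0.18 against CD8A, and -0.17 to 0.33 with 1 dog left out. CTSW was -0.37 with the block. GZMB was 0.47 with background subtracted and 0.0275, 0.37 and 0.89 against TRAT1, SH2D1A and PTPRC. PRF1 was 1.598 with background subtracted and 0.55 against PTPRC. KLRK1 was 0.36 with background subtracted, 0.00902 with male healthy dogs only, and 0.63 and 0.89 against SH2D1A and PTPRC. The cause of these changes was not tested. Counts near background limit the fold changes of all genes but FAS.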
